A study of Mus musculus with 58 samples.

Results

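The 10 genes followed here through 58 mice mark the layers of the cerebral cortex: *Cux1*, *Cux2* and *Rasgrf2* for the upper layers, *Rorb* for layer 4, *Etv1*, *Fezf2* and *Bcl11b* for layer 5, *Foxp2* and *Tle4* for layer 6, and *Ctgf* for layer 6b. They were taken by gene symbol, and all 10 were among the 15171 genes of the table. All 10 passed the filter on low counts in every comparison.

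The cortex is built in layers that differ in the targets of their neurons. Neurons of layers 2 and 3 project mainly within the cortex, layer 4 receives the thalamic input, layer 5 sends axons to the brainstem and spinal cord, and layer 6 projects back to the thalamus. Layer 6b is a thin remnant of the embryonic subplate on the border to the white matter. Most layer markers are transcription factors that set these identities during development and stay on in the adult. Several are also made outside the cortex, among them *Bcl11b* (CTIP2) in hippocampal and striatal neurons and *Foxp2* in striatum and thalamus. *Cux1* and *Rorb* are made in other neurons too, and *Ctgf* in astrocytes, vessels and scar tissue. This list is not complete.

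RNA was sequenced from mice that carried human *APOE3* or *APOE4* in place of both mouse *Apoe* alleles, with 2 functional *Abca1* copies (Abca1+/+) or 1 (Abca1+/-), on a C57BL/6 background. Mice aged 3 months received a craniotomy of 4.5 mm over the left parietal cortex, and then either a controlled cortical impact, for which a tip 3.0 mm wide was driven to 1.0 mm (TBI), or no impact (sham). After 14 days the cortex and hippocampus of a 1.5 mm coronal slice at the injury were frozen together as 1 sample. The groups were E3/Abca1+/+ sham (n = 8) and TBI (n = 8), E3/Abca1+/- sham (n = 7) and TBI (n = 6), E4/Abca1+/+ sham (n = 7) and TBI (n = 7), and E4/Abca1+/- sham (n = 7) and TBI (n = 8), each with both sexes. Because cortex and hippocampus were pooled, and because the tissue is bulk, fewer neurons of a layer and less RNA per neuron cannot be told apart, nor can a change in a layer be told apart from a change in the share of cortex in the sample. For the same reason the RNA of a gene, *Rasgrf2* included, cannot be assigned to the cortex or the hippocampus.

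Total counts per mouse ran from 4421308 to 37877346. The Abca1+/- libraries were the deeper ones (median 18871445 counts against 8350020), so that each comparison of *Abca1* copies is also a comparison of depth. The lowest count of any of the 10 genes in any mouse was 40, for *Foxp2*. Markers of hippocampal as well as cortical neurons were present in every group: the summed level of 5 dentate gyrus genes, in counts scaled to the size of the library (CPM), ran from 90.1 to 168 in the 29 sham mice.

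The 2 genes called lower after TBI in every genotype (adjusted p under 0.05, edgeR) are shown by the 250 bases before their transcription start. Entries were found in RefSeq's promoters of GRCm38.p6 for 8 of the 10 genes. *Rasgrf2* lies on chromosome 13 from 91880407 to 92131828 (GRCm38.p6), on the minus strand, and its window is chr13:92131829-92132078. *Etv1* lies on chromosome 12 from 38780082 to 38870483, on the plus strand, and the window before its outermost start is chr12:38779832-38780081. Capitals mark CpG dinucleotides, the sites of DNA methylation; both sequences run 5′ to 3′ on the strand of the gene.
Rasgrf2: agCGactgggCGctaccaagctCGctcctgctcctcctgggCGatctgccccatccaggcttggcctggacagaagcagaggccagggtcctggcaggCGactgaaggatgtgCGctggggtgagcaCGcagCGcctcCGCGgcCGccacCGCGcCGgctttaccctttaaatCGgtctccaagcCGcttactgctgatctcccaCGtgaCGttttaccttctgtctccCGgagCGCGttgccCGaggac
Etv1: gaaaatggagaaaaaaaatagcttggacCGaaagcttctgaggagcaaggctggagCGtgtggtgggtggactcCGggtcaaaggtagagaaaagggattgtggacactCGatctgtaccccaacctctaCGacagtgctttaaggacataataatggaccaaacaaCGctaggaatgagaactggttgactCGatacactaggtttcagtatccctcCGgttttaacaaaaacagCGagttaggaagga
The *Rasgrf2* window held 22 CpG dinucleotides and 65.2% G and C, and that of *Etv1* held 9 and 46.4%. The median of the 32851 RefSeq windows of the same length was 6 CpG. The E-box CACGTG, which reads the same on both strands, was found in the windows of *Rasgrf2* and *Tle4* and in 6.02% of all windows. The cAMP response element TGACGTCA was found in 0 windows of the members and in 1.55% of all windows. These are matches of letters only.

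The other 8 genes lie, in GRCm38.p6, on chromosome 5 (*Cux1*, 136248135 to 136567590; *Cux2*, 121857962 to 122050415), 19 (*Rorb*, 18930609 to 19111196; *Tle4*, 14448072 to 14598183), 14 (*Fezf2*, 12338992 to 12346803), 12 (*Bcl11b*, 107910403 to 108004145), 6 (*Foxp2*, 14901349 to 15441977) and 10 (*Ctgf*, 24595442 to 24598683). Counts are per gene, over its exons, and do not separate isoforms. In sham mice the 10 genes differed widely in level. On the scale of CPM per kilobase of exon (merged exons of GENCODE M21), *Rasgrf2* had the highest level, 23.6 ± 1.67 (SD, n = 29), and *Foxp2* the lowest, 0.811 ± 0.157. Between them lay *Bcl11b* (14.97 ± 1.72), *Fezf2* (14.0 ± 2.15), *Tle4* (13.6 ± 1.32), *Ctgf* (11.8 ± 1.64), *Cux2* (7.44 ± 1.37), *Etv1* (6.57 ± 0.691), *Rorb* (3.13 ± 0.495) and *Cux1* (2.92 ± 0.239). The means of *Bcl11b* and *Fezf2*, *Fezf2* and *Tle4*, *Cux2* and *Etv1*, and *Rorb* and *Cux1* were closer than 1 SD. Within single mice the first gene of these pairs was the higher in 21, 18, 22 and 19 of 29 sham mice, so the order varied between mice. *Rasgrf2*, a guanine nucleotide exchange factor for Ras and Rac, exceeded *Bcl11b* in 29 of 29 sham mice.

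Several libraries had outlying sums of regional genes, listed further below, and the 1 farthest from its group was singled out after seeing the data. Mouse 8 of the E4/Abca1+/- TBI group had 669 summed CPM of 6 striatal neuron genes, against 104 to 194 in the other 57 mice, and all 6 genes (among them *Ppp1r1b*) were at their highest there. It also had the lowest sum of dentate gyrus genes, 29.1 CPM against 47.4 to 174. The layer genes were extreme in it in both directions. *Cux1* (83.1 CPM), *Rasgrf2* (251), *Rorb* (58.1) and *Foxp2* (23.5) were at the highest level of all 58 mice, and *Etv1* (46.0), *Fezf2* (19.3) and *Tle4* (58.7) at the lowest. Without this mouse the same 6 genes were lower and the same gene higher over all genotypes after TBI, and the same 2 genes were lower in E4/Abca1+/- mice.

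**Figure D1:**
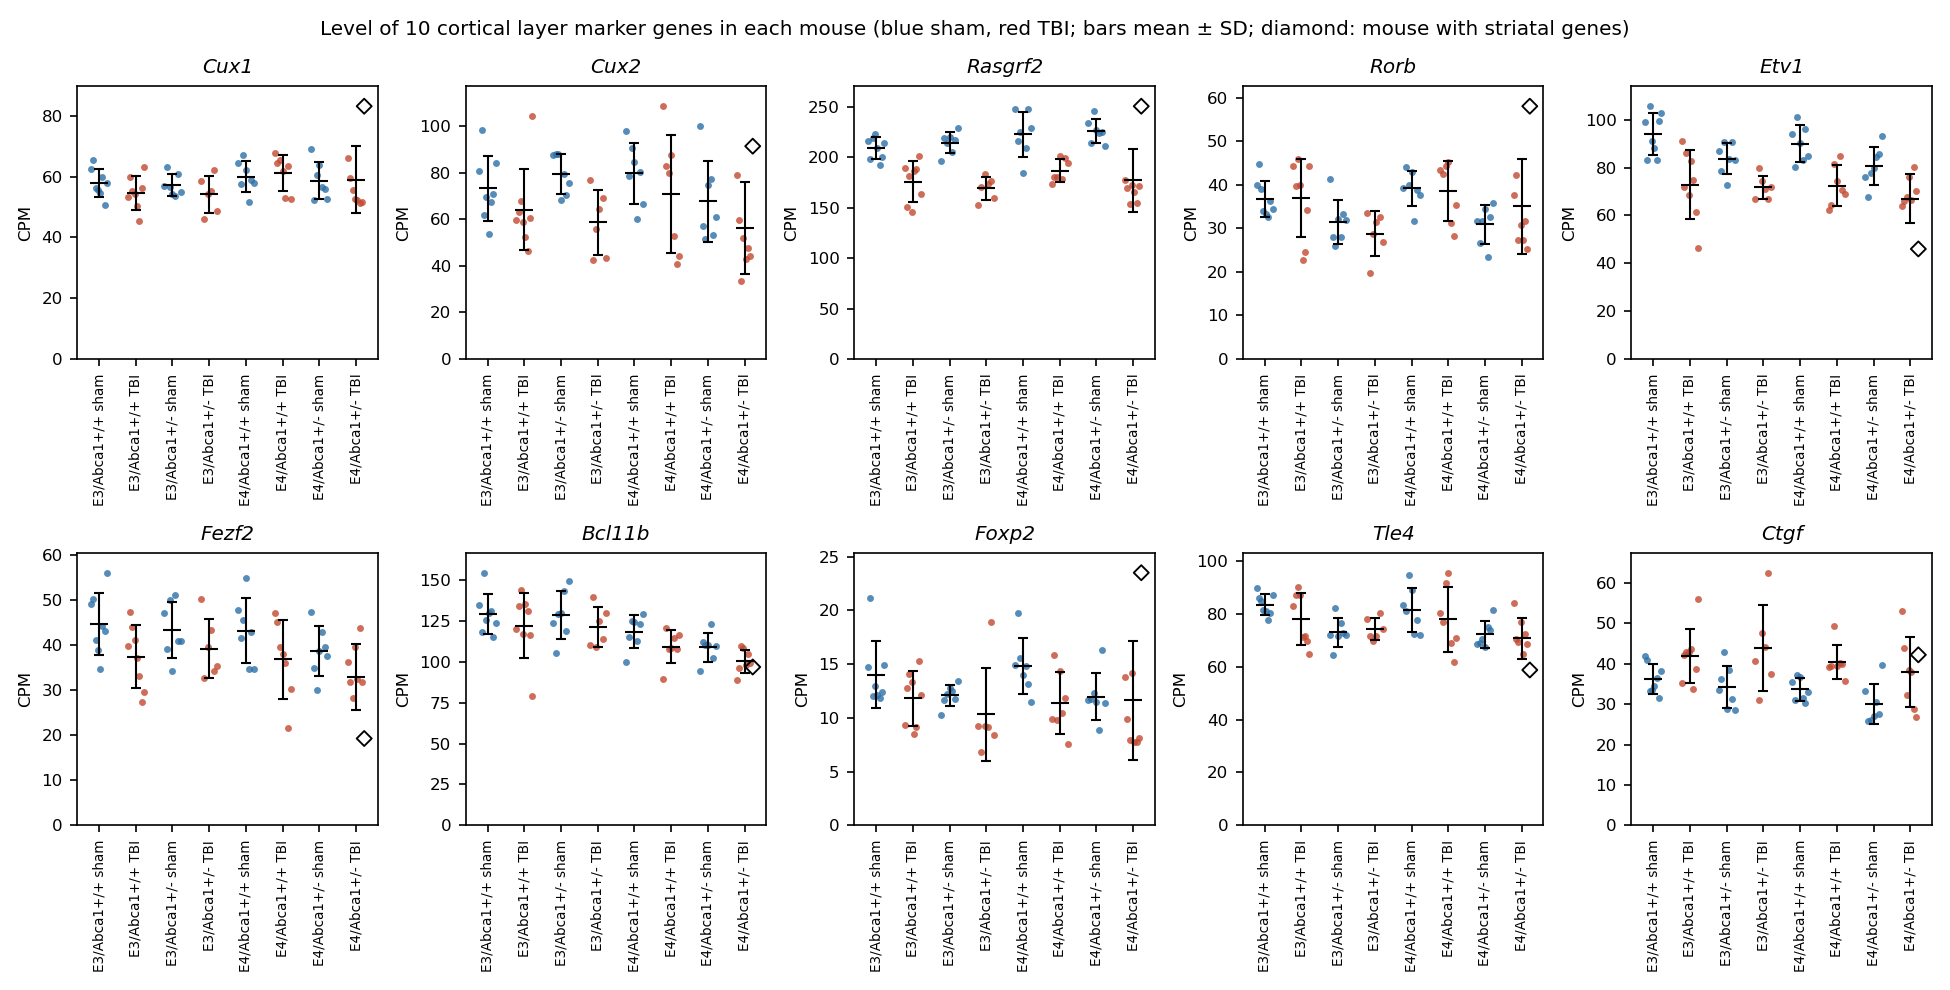
Level of each layer marker gene in CPM (vertical axis, linear from 0) in every mouse of the 8 groups (horizontal axis). Blue points are sham mice, red points TBI mice, bars the mean ± SD, and the diamond is mouse 8 of the E4/Abca1+/- TBI group. *Cux2*, *Rasgrf2*, *Etv1*, *Fezf2*, *Bcl11b* and *Foxp2* have lower means in the red groups of every genotype. The diamond lies outside its group for *Rasgrf2* (251 CPM against 154 to 178).

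After TBI, *Rasgrf2* and *Etv1* were called lower (adjusted p under 0.05, edgeR) in all 4 genotypes. *Cux2*, *Fezf2*, *Bcl11b* and *Foxp2* also had negative log2 fold changes in all 4. Averaged over the genotypes, 6 of the 10 genes were lower (*Cux2*, *Rasgrf2*, *Etv1*, *Fezf2*, *Bcl11b* and *Foxp2*), 1 was higher (*Ctgf*), and 3 did not pass the threshold (*Cux1*, *Rorb* and *Tle4*). Over all genes tested, 24.2% were lower and 28.9% higher in that comparison. The median log2 fold change was -0.16 for the 10 genes and 0.01 for all genes. Within genotypes, 2 of 10 were lower in E3/Abca1+/+ mice (10.9% of all genes lower, 12.2% higher), 3 of 10 in E3/Abca1+/- mice (10% lower, 13.3% higher), 2 of 10 in E4/Abca1+/+ mice (4.83% lower, 8.70% higher) and 2 of 10 in E4/Abca1+/- mice (16.3% lower, 17.6% higher). *Ctgf* in E4/Abca1+/+ mice was the single higher member. The comparison over all genotypes uses the same mice as the 4 within genotypes and is no separate evidence. General neuronal genes were lower as well: 6 of 8 passed the test over all genotypes, with a median of -0.22, among them *Snap25* (log2 fold change -0.37 ± 0.03, SE, adjusted p = 4.02e-15) and *Syt1* (-0.22 ± 0.03, adjusted p = 6.1e-09), both from edgeR's quasi-likelihood test. Their part in the fall of the layer genes was not tested.

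**Figure D2:**
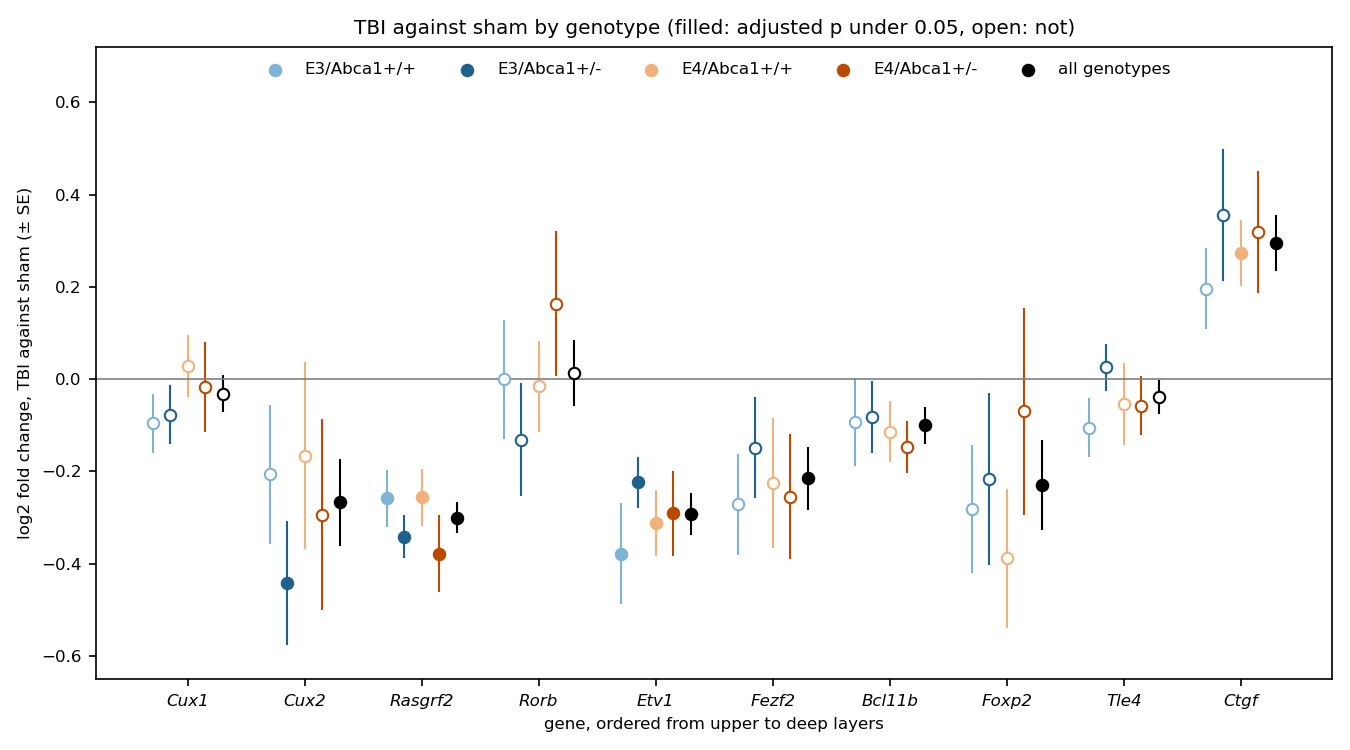
Log2 fold change of TBI against sham (vertical axis, ± SE) for each gene (horizontal axis, from upper to deep layers) in each genotype and averaged over genotypes. Filled points passed an adjusted p of 0.05 in edgeR and open points did not; *Rasgrf2* and *Etv1* are filled in every genotype, and *Ctgf* lies above 0 in every genotype.

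*Rasgrf2*, a marker of layers 2 and 3, had a lowest, median and highest level of 193, 212 and 223 CPM in E3/Abca1+/+ sham mice and of 146, 184 and 201 CPM after TBI. In E3/Abca1+/- mice the values were 197, 218 and 229 CPM in sham and 152, 172 and 184 CPM after TBI. These groups did not overlap, whereas in E3/Abca1+/+ mice 7 of 8 injured mice lay below every sham mouse. In E4/Abca1+/+ mice sham levels were 185, 225 and 248 CPM and TBI levels 173, 181 and 202 CPM, with 4 of 7 injured mice below all sham mice. In E4/Abca1+/- mice they were 212, 225 and 246 CPM in sham and 154, 171 and 251 CPM after TBI. There, mouse 8 was above all sham mice and the other 7 were below all of them, with a highest level of 178 CPM.

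The log2 fold change of *Rasgrf2* was -0.26 ± 0.06 (SE) in E3/Abca1+/+ mice (adjusted p = 0.0039, edgeR), -0.34 ± 0.05 in E3/Abca1+/- mice (adjusted p = 4.47e-05, edgeR), -0.26 ± 0.06 in E4/Abca1+/+ mice (adjusted p = 0.00875, edgeR) and -0.38 ± 0.08 in E4/Abca1+/- mice (adjusted p = 0.00187, edgeR). Without mouse 8 the last value was -0.48 (adjusted p = 8.48e-07, edgeR). Over all genotypes injured mice had 0.812 times the sham level, a log2 fold change of -0.30 ± 0.03 (adjusted p = 7.43e-11, edgeR). *Rasgrf2* passed the threshold in all fits that were tried, in each genotype and over all genotypes.

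*Cux2*, a homeobox factor of neurons in layers 2 to 4, was more variable. Its levels ran from 53.5 to 98.3 CPM in E3/Abca1+/+ sham mice (median 70.2) and from 46.2 to 104 CPM after TBI (median 60.1). In E3/Abca1+/- mice they ran from 68.3 to 88.1 CPM (median 79.2) in sham and from 42.7 to 76.8 CPM (median 60.0) after TBI, with 4 of 6 injured mice below all sham mice. In this genotype *Cux2* fell, with a log2 fold change of -0.44 ± 0.13 (adjusted p = 0.0291, edgeR). The call did not hold in a single fit over all 58 mice (adjusted p = 0.106, edgeR) or after thinning the libraries to the lowest total (adjusted p = 0.0666, edgeR). The log2 fold change in the other genotypes was -0.21 in E3/Abca1+/+ (adjusted p = 0.365, edgeR), -0.17 in E4/Abca1+/+ (adjusted p = 0.663, edgeR) and -0.29 in E4/Abca1+/- mice (adjusted p = 0.303, edgeR), and averaged over genotypes it was -0.27 ± 0.09 (adjusted p = 0.0145, edgeR). The last 2 values were, without mouse 8, -0.43 (adjusted p = 0.0888, edgeR) and -0.30 (adjusted p = 0.00435, edgeR). In E4/Abca1+/+ TBI mice *Cux2* ran from 40.9 to 108 CPM, with 3 of 7 mice below and 1 above all sham mice.

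*Cux1*, the related homeobox factor, had group means between 54.2 and 61.2 CPM. Its log2 fold change over all genotypes was -0.03 ± 0.04, with a 95% interval from -0.11 to 0.05 (adjusted p = 0.535, edgeR). *Rorb*, the nuclear receptor that marks layer 4, had group means between 28.8 and 39.3 CPM and a log2 fold change of 0.01 ± 0.07, with an interval from -0.13 to 0.15 (adjusted p = 0.892, edgeR). The sign for *Rorb* turned with the fit, from -0.14 to 0.03 over the 9 fits, and was -0.02 without mouse 8. *Rorb* passed in 1 of these fits, that with the hippocampal score described below. In E4/Abca1+/- mice it was at 0.16, and at 0.02 without mouse 8 (adjusted p = 0.925, edgeR).

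*Etv1* (ER81), an ETS factor of layer 5 neurons, had a lowest, median and highest level of 83.1, 95.1 and 106 CPM in E3/Abca1+/+ sham mice and of 46.3, 73.5 and 91.1 CPM after TBI. In E3/Abca1+/- mice the levels were 72.9, 83.4 and 90.8 CPM in sham and 66.8, 71.4 and 79.7 CPM after TBI. In both genotypes the groups overlapped, with 6 of 8 and 4 of 6 injured mice below all sham mice. E4/Abca1+/+ mice had 80.5, 90.4 and 101 CPM in sham and 62.4, 70.5 and 85.1 CPM after TBI, and E4/Abca1+/- mice 67.6, 79.9 and 93.1 CPM in sham and 46.0, 67.1 and 80.3 CPM after TBI. Of the injured mice 5 of 7 and 4 of 8 lay below all sham mice in these genotypes, and none in any genotype lay above them.

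The log2 fold change of *Etv1* was -0.38 ± 0.11 in E3/Abca1+/+ mice (adjusted p = 0.0168, edgeR), -0.22 ± 0.05 in E3/Abca1+/- mice (adjusted p = 0.00627, edgeR), -0.31 ± 0.07 in E4/Abca1+/+ mice (adjusted p = 0.0066, edgeR) and -0.29 ± 0.09 in E4/Abca1+/- mice (adjusted p = 0.0213, edgeR). Without mouse 8 the last was -0.24 (adjusted p = 0.0116, edgeR). Over all genotypes it was -0.29 ± 0.05 (adjusted p = 3.19e-07, edgeR), and it passed the threshold in 9 of 9 fits. In E3/Abca1+/- mice the call was lost after thinning (adjusted p = 0.0754, edgeR) and in the single fit over all mice (adjusted p = 0.0924, edgeR).

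*Fezf2*, which specifies the corticospinal neurons of layer 5, and *Bcl11b*, which acts downstream of it in the same neurons, passed only when the genotypes were averaged. *Fezf2* had group medians between 38.6 and 43.6 CPM in sham and between 32.2 and 38.5 CPM after TBI, and a log2 fold change of -0.22 ± 0.07 over all genotypes (adjusted p = 0.00609, edgeR). Within genotypes its values ran from -0.27 to -0.15, with adjusted p from 0.0825 to 0.381 in edgeR. *Bcl11b* had group medians between 110 and 129 CPM in sham and between 98.5 and 126 CPM after TBI, and a log2 fold change of -0.10 ± 0.04 over all genotypes (adjusted p = 0.0307, edgeR), with -0.15 to -0.08 within them. Over all genotypes the values without mouse 8 were -0.19 for *Fezf2* (adjusted p = 0.00755, edgeR) and -0.10 for *Bcl11b* (adjusted p = 0.0364, edgeR). The groups of both genes overlapped in every genotype.

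*Foxp2*, a forkhead factor of layer 6, was the gene with the lowest counts. Its log2 fold change over all genotypes was -0.23 ± 0.10 (adjusted p = 0.042, edgeR), and -0.29 without mouse 8 (adjusted p = 0.0039, edgeR). It missed the threshold when genes with under 10 counts in any mouse were left out (adjusted p = 0.0524, edgeR) and after thinning (adjusted p = 0.0902, edgeR). In E3/Abca1+/- mice 5 of 6 injured mice lay below all sham mice (10.3 to 13.5 CPM), and the remaining mouse had 18.9 CPM, above all of them; the log2 fold change there was -0.22 ± 0.19 (adjusted p = 0.465, edgeR). That mouse, number 5, also had 177 summed CPM of 6 thalamic neuron genes, against 91.8 to 107 in the other 5 mice of its group. The part of thalamic tissue in *Foxp2* was not tested.

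*Tle4*, a Groucho corepressor of corticothalamic neurons in layer 6, had group means between 70.7 and 83.5 CPM. Its log2 fold change after TBI was -0.04 ± 0.04 over all genotypes, with an interval from -0.11 to 0.03 (adjusted p = 0.39, edgeR), and it passed in 0 of 9 fits.

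*Ctgf* (*Ccn2* in the current annotation), a secreted matrix protein that marks layer 6b, was the only one of the 10 with a positive log2 fold change in every genotype. Its lowest, median and highest levels were 31.5, 35.4 and 41.9 CPM in E3/Abca1+/+ sham mice and 33.9, 42.4 and 56.1 CPM after TBI. In E3/Abca1+/- mice they were 28.5, 33.6 and 42.9 CPM in sham and 31.1, 42.4 and 62.5 CPM after TBI. The groups overlapped, with 5 of 8 and 3 of 6 injured mice above all sham mice. E4/Abca1+/+ mice had 30.2, 33.1 and 37.3 CPM in sham and 35.8, 39.5 and 49.4 CPM after TBI, with 6 of 7 injured mice above all sham mice. E4/Abca1+/- mice had 25.7, 27.6 and 39.6 CPM in sham and 26.8, 38.2 and 53.0 CPM after TBI, with 3 of 8 above. *Ctgf* rose in E4/Abca1+/+ mice (log2 fold change 0.27 ± 0.07, adjusted p = 0.015, edgeR) and over all genotypes (0.30 ± 0.06, adjusted p = 3.9e-05, edgeR, 9 of 9 fits). The values in the other genotypes were 0.20 in E3/Abca1+/+ (adjusted p = 0.113, edgeR), 0.35 in E3/Abca1+/- (adjusted p = 0.094, edgeR) and 0.32 in E4/Abca1+/- mice (adjusted p = 0.0746, edgeR). With mouse 8 left out the last was 0.29 (adjusted p = 0.119, edgeR), and the value over all genotypes was 0.29 (adjusted p = 6.36e-05, edgeR).

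*Ctgf* is also made outside neurons, so lists of some other sources are set beside it. Over all genotypes, 28.9% of all genes tested were higher and 24.2% lower. Of 6 fibroblast and scar genes, 6 were higher over all genotypes, with a median log2 fold change of 0.66, and the 2 most abundant were *Dcn* (0.57 ± 0.11, adjusted p = 2.78e-05, edgeR) and *Col1a2* (0.74 ± 0.18, adjusted p = 0.000564, edgeR). Their summed level ran from 91.6 to 183 CPM in sham and from 66.1 to 388 CPM in injured mice. Of 5 measured targets of YAP, the transcriptional regulator that drives *Ctgf* in many cells, 4 were higher (median 0.49), with *Axl* at 0.79 ± 0.06 (adjusted p = 4.07e-18, edgeR) and *Lats2* at 0.15 ± 0.07 (adjusted p = 0.0613, edgeR). Of 4 other layer 6b genes 1 was higher, *Moxd1*, with 0.22 over all genotypes (adjusted p = 0.00031, edgeR), and the median of the 4 was 0.18. The 2 most abundant astrocyte genes were *Gfap* (2.39 ± 0.10, adjusted p = 6.72e-26, edgeR) and *Slc1a3* (0.56 ± 0.04, adjusted p = 1.33e-16, edgeR). Those of endothelium were *Flt1* (-0.09 ± 0.05, adjusted p = 0.177, edgeR) and *Cldn5* (0.32 ± 0.07, adjusted p = 0.000135, edgeR). The part of scar, astrocytes, vessels and layer 6b in the rise of *Ctgf* was not tested.

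Other genes known for single layers gave a wider range. Of 27 such genes, 14 were lower and 3 higher over all genotypes, with a median of -0.12. Of all genes tested, 24.2% were lower and 28.9% higher in that comparison, and the counts by layer rest on few genes. By layer, 3 of 8 genes of layers 2 and 3 were lower and 1 higher, 2 of 2 of layer 4 lower, 5 of 7 of layer 5 lower, and 4 of 6 of layer 6 lower and 1 higher. Among the genes that were lower in at least 3 of the 4 genotypes were *Lamp5*, *Rspo1* and *Tbr1*. *Lamp5*, a membrane protein of layers 2 and 3 and of some interneurons, fell in all 4, from 140 ± 17.0 CPM in sham to 75.8 ± 25.0 CPM in injured mice (SD, n = 29 each), a log2 fold change of -0.90 ± 0.07 (adjusted p = 1.15e-15, edgeR). *Rspo1*, a secreted Wnt agonist of layer 4, fell in all 4 from 7.49 ± 1.28 to 3.40 ± 1.37 CPM (-1.18 ± 0.11, adjusted p = 2.28e-14, edgeR). *Tbr1*, the T-box factor of layer 6, passed the threshold as lower in 3 (-0.37 over all genotypes, adjusted p = 1.38e-07, edgeR). Higher were *Otof* of layers 2 and 3 (0.27, adjusted p = 0.00416, edgeR), *Rprm* of layer 6 (0.21, adjusted p = 0.000128, edgeR) and *Moxd1*. Without mouse 8 the counts were 14 lower and 4 higher. The log2 fold change of *Rasgrf2*, -0.30, was smaller in size than those of *Lamp5* and *Rspo1*.

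The level of hippocampal genes moved with several of the layer genes; it is no measure of the share of hippocampus in the sample, since its genes did not all move alike. A score of 11 dentate gyrus, CA1 and CA3 genes (mean log2(CPM + 1)) ran from 4.11 to 5.49 in 57 mice and was 3.54 in mouse 8. Of its genes *Mpped1* had the highest mean level, 319 CPM in sham mice, and among them it followed *Fezf2* with r = 0.86. Over the 29 sham mice, with group means removed, *Bcl11b* rose with the score (Pearson's r = 0.77, two-sided permutation p = 1e-05, the smallest these permutations can give; Spearman's rho = 0.74, permutation p = 3e-05), and r was 0.76 when the 2 mice with the outermost *Bcl11b* levels were dropped. *Cux2* fell with it (r = -0.62, permutation p = 0.00188, adjusted over the 10 genes p = 0.0094; rho = -0.47, permutation p = 0.0157, adjusted p = 0.0587), as did *Cux1* (r = -0.57, permutation p = 0.00375, adjusted p = 0.0125; rho = -0.46, permutation p = 0.0176, adjusted p = 0.0587). *Foxp2* had r = -0.51 (permutation p = 0.0147, adjusted p = 0.0368; rho = -0.38, permutation p = 0.0489, adjusted p = 0.0979). Without the 2 mice outermost in the level of the gene itself, r was -0.37 for *Cux2*, -0.34 for *Cux1* and -0.35 for *Foxp2*, so that these relations rest in part on those mice. For *Rasgrf2* r was 0.02 (permutation p = 0.898; rho = 0.03) and for *Etv1* 0.14 (permutation p = 0.52; rho = -0.01).

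**Figure D3:**
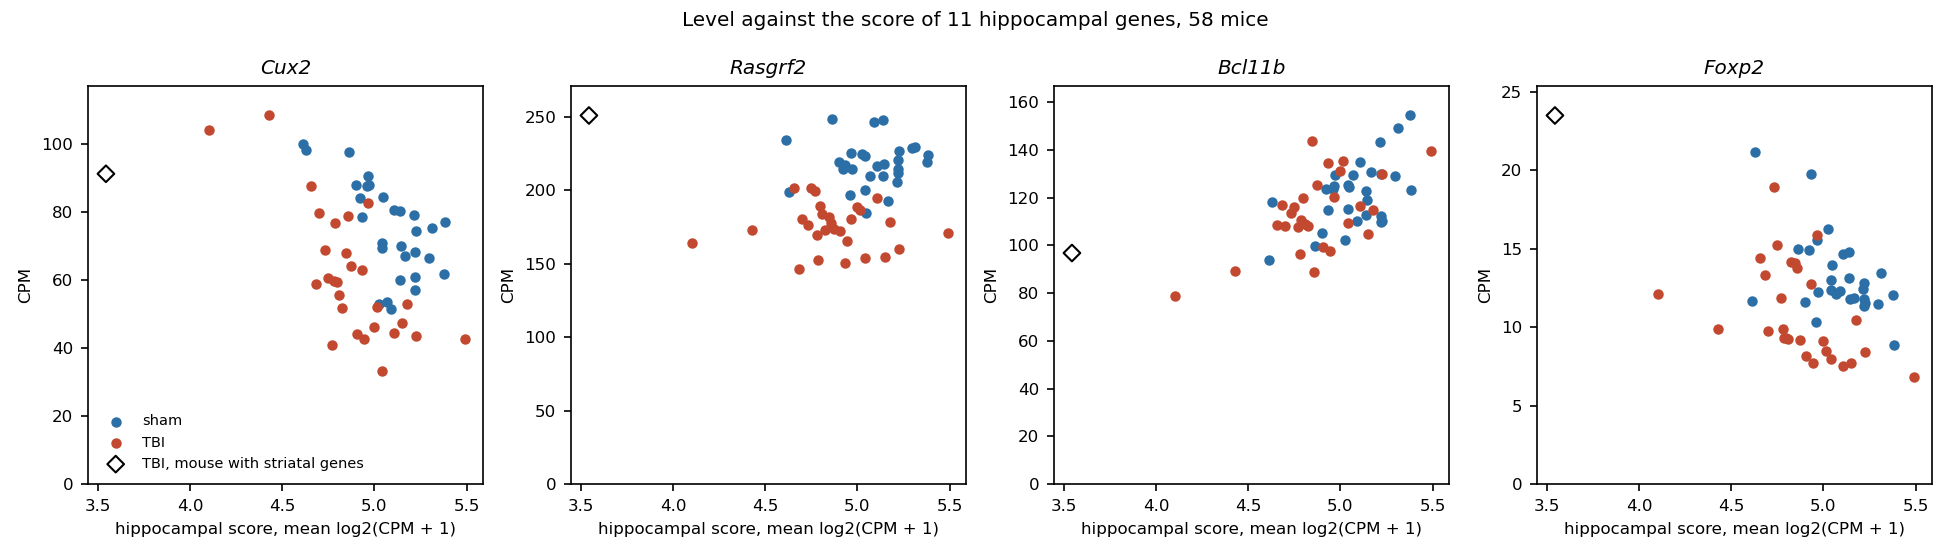
Level in CPM (vertical axis, linear from 0) of *Cux2*, *Rasgrf2*, *Bcl11b* and *Foxp2* against the hippocampal score (horizontal axis, mean log2(CPM + 1) of 11 genes) in 58 mice; blue points are sham, red points TBI and the diamond is mouse 8 of the E4/Abca1+/- TBI group at a score of 3.54. At like scores the red points of *Rasgrf2* lie below most blue points, and *Bcl11b* follows the score in both.

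The mean score was lower after TBI in every genotype, at 4.76 to 4.99 against 5.05 to 5.11 in sham. This difference was not tested, and SDs within groups ran from 0.149 to 0.504. The E4/Abca1+/- TBI mean of 4.76 includes mouse 8, and the highest score of all, 5.49, was that of an E3/Abca1+/- TBI mouse. Of 5 dentate gyrus genes 3 fell over all genotypes, against 24.2% of all genes. The 2 most abundant of the 5 did not pass: *C1ql2* (0.10 ± 0.14, adjusted p = 0.566, edgeR) and *Prox1* (-0.12 ± 0.09, adjusted p = 0.26, edgeR). The summed level of the CA1 and CA3 genes of the score was 629 ± 47.2 CPM in sham and 632 ± 61.3 CPM in injured mice (SD, n = 29 each), and of 6 genes 2 were lower and 1 higher, *Wfs1* (0.27 ± 0.06, adjusted p = 0.000264, edgeR). Since the mean score was lower after injury, a fit with the score as a covariate can also take out part of the injury. With it, *Rasgrf2* was at -0.34 over all genotypes (adjusted p = 2.36e-12, edgeR). *Etv1* was at -0.21 (adjusted p = 2.77e-05, edgeR), the smallest size in its 9 fits, and no longer passed in E3/Abca1+/+ mice (-0.20, adjusted p = 0.15, edgeR) or E4/Abca1+/- mice (-0.17, adjusted p = 0.0747, edgeR). *Cux2* fell further, to -0.50 (adjusted p = 4.84e-08, edgeR), *Foxp2* to -0.45 (adjusted p = 8.74e-06, edgeR) and *Cux1* to -0.14 (adjusted p = 5.47e-05, edgeR). *Rorb*, at 0.01 without the score, was at -0.14 and passed (adjusted p = 0.0488, edgeR). *Bcl11b* was at -0.02 (adjusted p = 0.712, edgeR). *Ctgf* was at 0.20 over all genotypes (adjusted p = 0.00443, edgeR) and missed the threshold in E4/Abca1+/+ mice (0.23, adjusted p = 0.0661, edgeR).

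The study also asked whether the number of *Abca1* copies, which sets how much lipid cells pass to APOE, changes the transcriptome. Over all groups *Rorb* and *Tle4* were lower in Abca1+/- than in Abca1+/+ mice, 2 of the 10 genes, against 17.7% of all genes in either direction. *Rorb* had 31.8 ± 7.15 CPM (SD, n = 28, lowest 19.8, median 31.7, highest 58.1) in Abca1+/- and 37.9 ± 6.19 CPM (n = 30, lowest 22.8, median 39.3, highest 46.0) in Abca1+/+ mice, a log2 fold change of -0.27 ± 0.07 (adjusted p = 0.00436, edgeR). *Tle4* had 72.4 ± 5.65 CPM (58.7, 71.8 and 84.1) against 80.3 ± 8.84 CPM (61.7, 80.9 and 95.5), a log2 fold change of -0.15 ± 0.04 (adjusted p = 0.00262, edgeR). Both distributions overlapped widely. With libraries thinned to the same total the values were -0.25 (adjusted p = 0.0324, edgeR) and -0.18 (adjusted p = 0.00259, edgeR), and without mouse 8 they were -0.31 (adjusted p = 0.000412, edgeR) and -0.14 (adjusted p = 0.00376, edgeR).

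Within single isoforms and injuries, 1 of 10 genes passed in *APOE3* sham mice (2.72% of all genes in either direction), *Tle4* with -0.19 ± 0.05 (adjusted p = 0.0311, edgeR), which a single fit over all mice did not call (adjusted p = 0.166, edgeR). None passed in *APOE3* TBI (0.241% of all genes), *APOE4* sham (0.990%) or *APOE4* TBI mice (1.49%) in edgeR's test. At an unadjusted p under 0.05 these had 1 of the 10 genes (of all genes 1338 of 14966), 4 (2300 of 14743) and 1 (2703 of 14854), and DESeq2's Wald test called 1 in *APOE4* sham mice. That gene was *Rorb*, with -0.35 ± 0.09 in edgeR (adjusted p = 0.065).

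Between isoforms, *Bcl11b* was lower in *APOE4* mice. Over all groups it had 109 ± 10.8 CPM in *APOE4* mice (SD, n = 29, lowest 88.8, median 110, highest 129) and 125 ± 14.98 CPM in *APOE3* mice (n = 29, lowest 78.8, median 125, highest 154), a log2 fold change of -0.20 ± 0.04 (adjusted p = 0.000289, edgeR). It was the 1 gene of 10, against 14.9% of all genes in either direction. The value held in 9 of 9 fits, between -0.20 and -0.18, the fit with the hippocampal score included. In Abca1+/- TBI mice (2.76% of all genes called) *Bcl11b* was again the 1 gene that passed, with -0.29 ± 0.06 (adjusted p = 0.0215, edgeR). In Abca1+/- sham mice (5.19% of all genes) it had -0.24 ± 0.07 (adjusted p = 0.0599, edgeR), and DESeq2's Wald test called it (adjusted p = 0.0215). In Abca1+/+ mice 0 of 10 genes passed in edgeR, in sham (0.353% of all genes) or TBI (0.186%), with *Bcl11b* at -0.13 (adjusted p = 0.575, edgeR) and -0.16 (adjusted p = 0.82, edgeR). In each of these last comparisons 1 of the 10 genes had an unadjusted p under 0.05, against 1229 of 14172 genes in sham and 998 of 14014 in TBI, and DESeq2 called 0 of the 10.

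No layer gene responded to injury in a way that differed by genotype beyond error. For the isoform by injury term 0.00659% of all genes passed in edgeR, and for the *Abca1* by injury and the isoform by *Abca1* by injury terms 0%. None of the 10 genes passed, nor had an unadjusted p under 0.05, in any of the 3 terms, and DESeq2 also called 0. The intervals were wide: for *Rasgrf2* the difference in log2 fold change between *APOE4* and *APOE3* mice was -0.01, with a 95% interval from -0.14 to 0.13, and for *Cux2* it was 0.10, from -0.27 to 0.47. *Cux2* passing in 1 genotype only is therefore not a shown difference between genotypes. It also depended on the fit: over the fits tried, *Cux2* passed in 7 of 9 in E3/Abca1+/- mice and in 1 of 9 in E3/Abca1+/+ mice. In E4/Abca1+/- mice it passed in 1 of 10 and in E4/Abca1+/+ mice in 0 of 9.

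Females and males differed in 2 of the 10 genes, against 9.92% of all genes in either direction. *Fezf2* had 35.1 ± 6.25 CPM (SD, n = 28, lowest 19.3, median 35.0, highest 44.2) in females and 43.6 ± 6.43 CPM (n = 30, lowest 31.8, median 43.9, highest 56.0) in males, a log2 fold change of -0.30 ± 0.05 (adjusted p = 0.000394, edgeR). It was lower in females in sham (38.2 ± 4.09 against 46.6 ± 5.80 CPM) and in injured mice (31.9 ± 6.56 against 40.6 ± 5.72 CPM). *Tle4* had 72.5 ± 5.71 CPM in females and 80.2 ± 8.87 CPM in males, -0.13 ± 0.03 (adjusted p = 0.00721, edgeR). Without mouse 8, the lowest of all 58 mice in both genes, the values were -0.28 for *Fezf2* (adjusted p = 0.000345, edgeR) and -0.12 for *Tle4* (adjusted p = 0.00921, edgeR). *Cux2* had 61.4 ± 15.7 against 75.5 ± 17.3 CPM, with -0.26 ± 0.09 (adjusted p = 0.0546, edgeR), which passed without mouse 8, a female (-0.31, adjusted p = 0.0117, edgeR). The hippocampal score was 4.97 ± 0.37 in females and 4.93 ± 0.24 in males, while the summed level of its 11 genes was 722 ± 59.9 CPM in females and 776 ± 55.3 CPM in males, and that of its CA1 and CA3 genes 603 ± 48.1 against 656 ± 47.6 CPM. Their part in the sex differences was not tested. Summed choroid plexus genes had medians of 32.7 and 16.2 CPM. Of the 27 other layer genes 9 were lower and 2 higher in females.

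**Figure D4:**
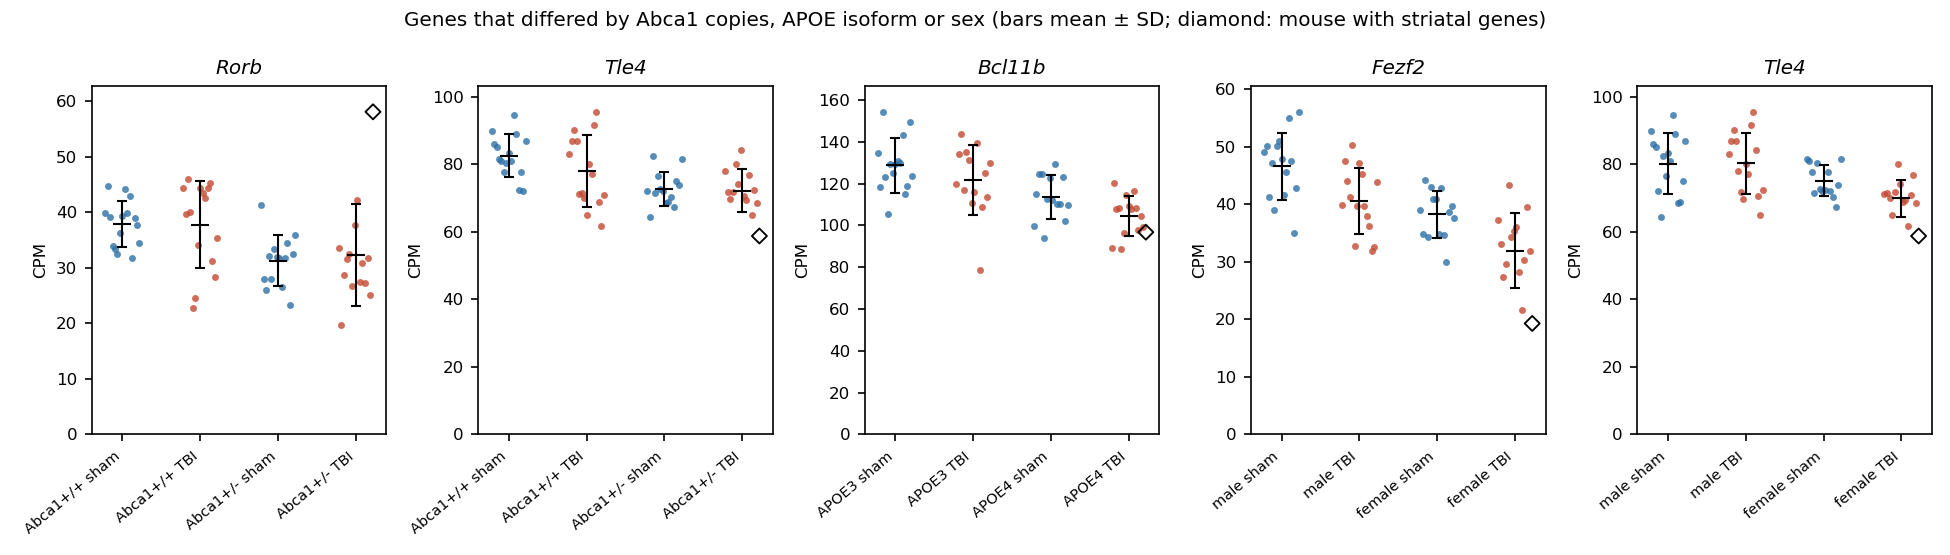
Level in CPM (vertical axis, linear from 0) of the genes that differed by *Abca1* copies, *APOE* isoform or sex, in sham (blue) and TBI (red) mice of each level; points are mice, bars the mean ± SD, and the diamond is mouse 8 of the E4/Abca1+/- TBI group. The distributions overlap in each panel; *Fezf2* is 38.2 CPM on average in female and 46.6 CPM in male sham mice.

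The 10 genes did not vary together as a block among uninjured mice. Over the 29 sham mice, with group means removed from log2(CPM + 1), 7 of 45 pairs passed an adjusted permutation p of 0.05, all with positive r. The pair most alike was *Cux2* and *Fezf2*, of different layers (r = 0.78, two-sided permutation p = 1e-05, adjusted p = 0.00045; rho = 0.79, permutation p = 1e-05), and it stayed at r = 0.77 when the 2 mice with the outermost *Cux2* levels were dropped. It was followed by *Cux1* and *Cux2* (r = 0.68, permutation p = 0.00038, adjusted p = 0.00828; rho = 0.66, permutation p = 0.00062), where r was 0.54 without 2 mice, and by *Etv1* and *Tle4* (r = 0.60, permutation p = 0.00089, adjusted p = 0.00828; rho = 0.60, permutation p = 0.00126), where r was 0.56. *Ctgf* paired with *Fezf2* (r = 0.60, permutation p = 0.00092, adjusted p = 0.00828; rho = 0.64, permutation p = 0.00046), *Tle4* (r = 0.59, permutation p = 0.00086, adjusted p = 0.00828; rho = 0.52, permutation p = 0.00416) and *Cux2* (r = 0.52, permutation p = 0.00594, adjusted p = 0.0382; rho = 0.53, permutation p = 0.0045), where r without 2 mice was 0.57, 0.49 and 0.46. *Fezf2* and *Tle4* had r = 0.56 (permutation p = 0.00379, adjusted p = 0.0284; rho = 0.59, permutation p = 0.00192) and 0.53 without 2 mice. *Rasgrf2* and *Etv1*, which both fell after TBI, had r = 0.17 in sham mice (permutation p = 0.41, adjusted p = 0.612; rho = 0.16, permutation p = 0.437). *Rasgrf2*, *Rorb*, *Bcl11b* and *Foxp2* were in 0 of the 7 pairs. With the other upper-layer genes, *Rasgrf2* had r = 0.21 for *Cux1* (permutation p = 0.314) and 0.01 for *Cux2* (permutation p = 0.947).

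**Figure D5:**
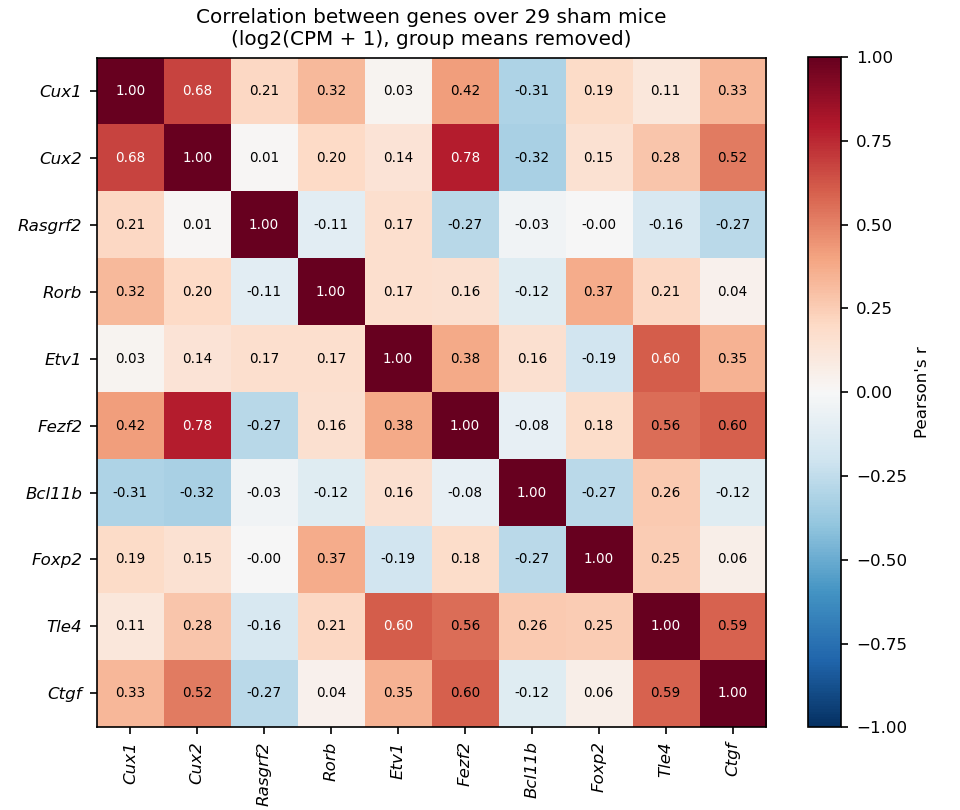
Pearson's r between each pair of the 10 genes over 29 sham mice, from log2(CPM + 1) with group means removed (both axes list the genes, the colour scale runs from -1 to 1). *Cux2* and *Fezf2* have the highest r, 0.78, and *Rasgrf2* lies between -0.27 and 0.21 with the others.

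Among 14184 genes with a mean of at least 1 CPM in sham mice, the 3 whose levels followed a layer gene most closely were found by r over the same 29 mice, as a description. For *Rasgrf2* they were *Kcnh7* (r = 0.75), *Kcnh5* (0.70) and *Glg1* (0.69), the former pair potassium channels. For *Cux2* they were *Slc4a3* (0.92), *Fxyd7* (0.91) and *Olfm2* (0.88), and for *Cux1* *Plxdc1* (0.77), *Adap1* (0.77) and *Ccdc136* (0.74). *Fezf2* was nearest to *Nxph3* (0.87), *Mpped1* (0.86), itself in the hippocampal score, and *Grm2* (0.85), and *Etv1* to *Gm5454* (0.85), *Septin3* (0.79) and *Gas7* (0.75). *Bcl11b* was nearest to *Sipa1l3* (0.78), *Mdga1* (0.77) and *Tnfrsf21* (0.76). *Rorb* went with *Ids* (0.73), *Cntn6* (0.72) and *Tmx4* (0.71), and *Foxp2* with *Slc8a3* (0.79), *Chrna6* (0.72) and *Gpr165* (0.68). *Tle4* went with *Lancl2* (0.71), *Vamp2* (0.70) and *Gnb1* (0.70). *Ctgf* was nearest to *Syt7* (0.75), *Nr4a2* (0.72), a transcription factor also known for layer 6b and the claustrum, and *Trabd2b* (0.71).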

How the data were processed

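The authors aligned reads with Subread 1.5.0 and deposited whole-number counts per gene from featureCounts, without normalization; the processing notes name the build mm10, and the annotation and strand setting are not given in the sources used here. The table held 15171 genes in 58 mice after 2 blank lines were removed, and 23 symbols turned into dates were renamed from their identifiers. Counts were scaled to CPM with TMM factors (0.954 to 1.038) and tested with edgeR 4.0.16 (filterByExpr, quasi-likelihood, robust), using only the groups compared, or all 8 groups for averages, interactions and sex. P-values were adjusted by Benjamini-Hochberg over all genes tested, with a threshold of 0.05. Standard errors were taken from the F statistic, and 95% intervals span 1.96 of them. Correlations used 100000 permutations within groups. On simulated counts, 41.8% of genes changed by 0.3 on the log2 scale were recovered for TBI in E3/Abca1+/- mice (14992 genes) and 85.1% over all genotypes (15158 genes). The labels give 1 sample per animal, and 0 of 183 pairs within groups had identical counts.

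The members and gene lists were chosen with earlier results of these data known. The text names all 10 members; of the other layer genes, those past the threshold in at least 3 genotypes or against the direction of most; of other lists, the 2 most abundant genes; and the 3 genes most like each member. Single values of some list genes are not reported here. Alternatives were DESeq2 (version 1.42.0) in place of edgeR, its size factors in place of TMM, no filter, at least 10 counts in every mouse, a sex covariate, thinning to 4421308 counts, a hippocampal score covariate and a single fit over all mice; leaving out mouse 8 of the E4/Abca1+/- TBI group was chosen after seeing the data.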

Additional observations from a re-analysis of the deposited data

Results flagged for a closer look

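In groups of 6 to 8 mice, 19 values of 112 tested groups lay far from the rest of their group by Dixon's test (chance gives about 1 in 20 groups). Of these, 5 belong to mouse 8 of the E4/Abca1+/- TBI group, which had 83.1 CPM of *Cux1* (others 51.2 to 66.0), 251 CPM of *Rasgrf2* (153.9 to 178), 23.5 CPM of *Foxp2* (7.73 to 14.2), 669 summed CPM of 6 striatal genes (109 to 132) and 29.1 summed CPM of 5 dentate gyrus genes (96.9 to 121).

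Mouse 8 of the E3/Abca1+/+ TBI group was high in *Cux2* (104 CPM against 46.2 to 67.9) and *Ctgf* (56.1 CPM against 33.9 to 43.5) and low in *Bcl11b* (78.8 CPM against 116 to 144). It also had the lowest hippocampal score of the 57 mice without the mouse rich in striatal genes, 4.11. *Bcl11b* was low in E4/Abca1+/+ TBI mouse 1 (89.4 CPM against 108 to 120), whose score was 4.43. *Ctgf* was high in E4/Abca1+/+ TBI mouse 3 (49.4 CPM against 35.8 to 40.1).

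*Foxp2* was high in E3/Abca1+/+ sham mouse 2 (21.1 CPM against 11.9 to 14.9) and in E3/Abca1+/- TBI mouse 5 (18.9 CPM against 6.81 to 9.28). In both mice the summed level of 6 thalamic neuron genes was also far from the group, at 155 CPM (others 100.4 to 115) and 177 CPM (91.8 to 107). The same sum was 261 CPM in E4/Abca1+/+ sham mouse 2 (100.7 to 123) and 219 CPM in E4/Abca1+/+ TBI mouse 2 (99.7 to 130.3). Summed striatal genes were high in E3/Abca1+/+ sham mouse 2 (138 CPM, others 111 to 124), E3/Abca1+/+ TBI mouse 7 (194 CPM, 115 to 149.8) and E4/Abca1+/+ TBI mouse 6 (178 CPM, 116 to 137).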

How the results depend on the processing

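*Rasgrf2* passed the threshold for TBI in every genotype under all alternatives that were run, and over all genotypes *Cux2*, *Etv1*, *Fezf2* and *Ctgf* did so in 9 of 9 fits, *Foxp2* in 7 and *Bcl11b* in 6. DESeq2's size factors and the absence of a filter changed none of the 95 results computed under each. The cause of the changes below was not tested. With DESeq2's Wald test, 1 member was higher after TBI in E3/Abca1+/- mice (0 in edgeR; of all genes 2080 of 15166), 1 was lower with fewer *Abca1* copies in *APOE4* sham mice (0 in edgeR; of all genes 258 of 15171) and 1 was lower in *APOE4* in Abca1+/- sham mice (0 in edgeR; of all genes 681 of 15171), as with at least 10 counts in every mouse (1; 372 of 12401) and with the hippocampal score (1; 522 of 14920). In the single fit over all mice, E3/Abca1+/- mice had 1 member lower and 1 higher after TBI (3 and 0 in their own fit; of 15171 genes 1160 and 1862), E4/Abca1+/- mice 1 higher (0; 3144 genes), E4/Abca1+/+ mice 0 higher (1; 1637 genes), and *APOE3* sham mice 0 lower with fewer *Abca1* copies (1; 105 genes). Thinning left 1 lower in E3/Abca1+/- mice (of all genes 938 of 13290). With the hippocampal score, E4/Abca1+/- mice had 4 lower after TBI (2; of all genes 2512 of 15083), E4/Abca1+/+ mice 0 higher (1; of all genes 1297 of 14041), Abca1+/- mice over all groups 4 lower (2; of all genes 1289 of 15171), and *APOE4* mice 1 higher (0; of all genes 1267 of 15171).

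The log2 fold changes after TBI that turned their sign were of genes that had not passed the threshold, and of the turned values *Rorb* with the hippocampal score over all genotypes did pass it (adjusted p = 0.0488, edgeR). *Rorb* was at -0.0006 in E3/Abca1+/+ mice and at 0.0122 with at least 10 counts, 0.0244 after thinning and 0.0093 in the single fit; over all genotypes (0.01) it was at -0.0028 with DESeq2's Wald test, -0.0031 after thinning, -0.14 with the hippocampal score and -0.0204 without mouse 8; in E4/Abca1+/- mice (0.16, and 0.0174 without mouse 8) it was at -0.0737 with the score. *Cux1* in E4/Abca1+/- mice (-0.02) was at 0.0166 with at least 10 counts and 0.0099 in the single fit, and in E4/Abca1+/+ mice (0.03) at -0.0767 with the score. With the score, *Bcl11b* was at 0.10 in E3/Abca1+/+ mice (-0.09) and *Tle4* at 0.0051 in E4/Abca1+/- mice (-0.06).

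Of the 45 pairs of genes, 7 passed over sham mice, 19 over injured mice, 21 over injured mice without mouse 8, and 4 over sham mice after the hippocampal score was removed; r of *Fezf2* and *Ctgf* was -0.0544 in injured mice. No paired analysis was possible because the labels number no replicates across groups. The lowest count of a member in any mouse was 40 (*Foxp2*).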

Other observations

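Genes of the choroid plexus, which lies beside the hippocampus, varied far more than the layer genes. Their summed level (6 genes) ran from 13.4 to 2051 CPM in females (n = 28) and from 11.2 to 1886 CPM in males (n = 30), and 0 of the 6 genes passed the test for TBI over all genotypes or for sex in edgeR. Genes of glia moved more after TBI than any layer marker among the 10: over all genotypes 6 of 6 microglia and macrophage genes were higher, with a median log2 fold change of 1.73, and 6 of 6 astrocyte genes, with a median of 0.83. Of 6 interneuron genes, 6 were lower, with a median of -0.21. Of all genes tested, 28.9% were higher and 24.2% lower over all genotypes.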
